A study of Rattus norvegicus with 6 samples.

Results

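The genes described here encode the proteins of the mitochondrial ribosome. They were the protein-coding rows of the expression table whose symbol starts with Mrpl or Mrps followed by a digit. This gave 75 rows under 73 symbols, of 33300 rows in all and 22293 protein-coding rows. RNA was sequenced from rat tendon stem/progenitor cells, the resident precursors of tendon, which the labels place under tenogenic differentiation. The NAC group (3 libraries) was cultured for 7 days in F12 medium with 500 uM N-acetyl-L-cysteine, a thiol antioxidant and cysteine donor. The Control group (3 libraries) was cultured for the same time in F12 medium alone. The table heads the Control columns with the letter N, which the labels do not explain; they are the one group left beside NAC. Whether replicate libraries stem from different cultures or animals is not in the labels, and the p-values cover the spread between libraries alone.

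Mitochondria translate the few mRNAs of their own genome on ribosomes of their own. The proteins of these ribosomes are encoded in the nucleus, made in the cytosol and imported, while the ribosomal RNAs come from the mitochondrial genome. The large subunit forms the peptide bond and the small subunit decodes the mRNA. Some of the proteins have a counterpart in bacterial ribosomes and others are found only in mitochondria. The products of mitochondrial translation are membrane subunits of the respiratory chain and of ATP synthase.

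Libraries held 13.6 to 14.9 M reads in NAC and 12.5 to 14.1 M reads in Control, recovered from the deposited FPKM (fragments per kilobase of gene, scaled to the library's depth). The 10 most abundant rows took 15.4% to 15.9% of the reads in NAC and 12.3% to 12.7% in Control. All 9 tendon markers reached 1 FPKM, and their summed level was 13983 to 14782 FPKM in NAC and 9429 to 9715 FPKM in Control. Markers of leukocytes summed to 24.3 to 25.6 FPKM in NAC and 23.2 to 26.5 FPKM in Control, with 3 of 6 reaching 1 FPKM and Ptprc listed at 0. Of pericyte and smooth muscle markers 3 of 4 reached 1 FPKM. They summed to 40.4 to 42.7 FPKM in NAC and 40.9 to 46.0 FPKM in Control. Of Schwann cell markers 1 of 4 reached 1 FPKM, and they summed to 47.7 to 53.2 FPKM in NAC and 46.9 to 55.0 FPKM in Control. Epithelium (1 of 4) and adipocytes (1 of 3) also had a marker reaching 1 FPKM. No endothelial or skeletal muscle marker reached 1 FPKM, and Cdh5, Myf5 and Pax7 were listed at 0. The authors' scaling divided NAC libraries by 0.909 to 0.925 of their recovered reads and Control libraries by 1.02 to 1.04 of theirs. Under it the median log2 fold change over all tested genes was -0.0063, whereas scaling to the total of recovered reads moved that median to -0.16. Counts of called genes are given under both scalings. In bulk samples fewer cells of a type and less RNA per cell cannot be told apart.

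Sequences around the annotated starts are shown first, since short motifs recur there although the genes are spread over 18 chromosomes. RefSeq promoters of build GRCr8 (250 bases before to 50 after the start) were found for 58 of the 73 symbols and set beside 19005 protein-coding promoters. On both strands, AAGATGGCG (YY1-type) stood in 9 of 58 promoters (15.5%) against 2.29% of all promoters. The letters CCGGAAG (ETS-type) stood in 19 of 58 (32.8%) against 11.2% of all, and GCGCANGCG (NRF1-type) in 10 of 58 (17.2%) against 8.05%. GGGCGG (SP1-type) was in 29 of the 58 against 43.1% of all, and TATAAA in 7 of the 58 (12.1%) against 13.1%. YY1, ETS proteins such as GABPA, and NRF1 are transcription factors known to act on nuclear genes of mitochondria. A match is a description of letters, not a bound site.

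The 9 matches to AAGATGGCG are printed in capitals with 10 bases to each side, since 8 of them lie in the same narrow window after the start (first base at position 1 to 31) and on the strand of the gene. The exception is Mrpl36, where it lies 17 bases before the start on the other strand.
Mrps18a (chr9:22367362-22367390, minus strand): gtgtgttcccAAGATGGCGgccctcaggg
Mrpl37 (chr5:127074943-127074971, minus strand): tgcccgggcaAAGATGGCGgcgtccaggt
Mrps30 (chr2:52195868-52195896, minus strand): gcggaggacaAAGATGGCGgctgccaggt
Mrpl42 (chr7:32028485-32028513, minus strand): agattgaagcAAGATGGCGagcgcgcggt
Mrpl46 (chr1:142116988-142117016, minus strand): ggaagacggaAAGATGGCGgcgcccatag
Mrpl50 (chr5:68668043-68668071, minus strand): gagcttgtcgAAGATGGCGgcgctgtgtg
Mrps27 (chr2:32474223-32474251, plus strand): ggtacgctccAAGATGGCGgcccccatgg
Mrps10 (chr9:21122405-21122433, minus strand): tcagggcaccAAGATGGCGgcgcgcgcag
Mrpl36 (chr1:31795120-31795148, plus strand): gccagaaagaAAGATGGCGtagggtcacg

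The 250 bases before the start are printed for a pair of members that differ in these motifs. Mrpl17, the second most abundant member, holds the NRF1-type letters (capitals; the first run is a palindrome matched on both strands) and also the SP1-type letters, which are left in lower case. Mrps6, the member with the highest log2 fold change, holds none of the 5 motifs searched.
Mrpl17 (GRCr8, chr1:169575700-169575949, minus strand): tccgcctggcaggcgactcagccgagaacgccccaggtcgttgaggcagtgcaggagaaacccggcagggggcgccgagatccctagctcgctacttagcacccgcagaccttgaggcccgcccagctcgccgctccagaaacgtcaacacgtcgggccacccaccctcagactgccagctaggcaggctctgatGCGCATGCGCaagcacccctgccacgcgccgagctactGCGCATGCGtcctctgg
Mrps6 (GRCr8, chr11:44778417-44778666, plus strand): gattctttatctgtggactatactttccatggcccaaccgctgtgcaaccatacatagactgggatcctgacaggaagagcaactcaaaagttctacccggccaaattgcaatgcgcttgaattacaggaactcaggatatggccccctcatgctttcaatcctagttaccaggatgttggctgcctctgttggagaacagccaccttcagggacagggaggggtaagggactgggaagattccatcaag

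Members with and without these letters had close median log2 fold changes. The median was -0.033 for the 9 members with the YY1-type letters and -0.017 for the 49 without, and 0.0070 for the 10 with the NRF1-type letters and -0.029 for the 48 without. Median levels were 7.19 FPKM for members with the YY1-type letters and 16.7 FPKM for those without. With the ETS-type letters the order was the other way, at 20.7 FPKM with and 14.5 FPKM without, and with the NRF1-type letters they were 13.7 FPKM with and 15.3 FPKM without.

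The starts of many of these genes also face another gene. In the deposited coordinates, for which the sources used here give no certain build, 20 of 75 members (26.7%) had a head-to-head neighbour with its start within 1000 bases, or overlapping by up to 300 bases. The same was true of 6.22% of all protein-coding rows. Mrps11 and Mrpl46 face each other with 72 bases between their starts, and Mrps12 faces Sars2, the mitochondrial seryl-tRNA synthetase, over 16 bases. Levels were unequal within the pairs just named but not in all pairs. Mrps34 and its neighbour Eme2 stood at 24.4 and 27.1 FPKM (means over the 6 libraries). Mrps12 averaged 25.03 ± 3.47 FPKM in NAC and 22.4 ± 2.56 FPKM in Control (SD, n = 3 each), while Sars2 averaged 2.63 ± 0.331 FPKM in NAC and 3.12 ± 0.0647 FPKM in Control. Of the 75 members, 11 overlap another row, 8 of them one with reads, and without a stated strand setting reads of such pairs cannot be told apart.

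All 73 symbols were measured above the filter (mean of at least 1 FPKM over the 6 libraries) by 1 row each. Mrpl36 and Mrpl53 have a second row each, listed at 0 in all libraries, so that 73 of 75 rows were tested. Of the tested members 46 belong to the large subunit and 26 to the small subunit. Mrps36 belongs to neither, since its product is a subunit of the 2-oxoglutarate dehydrogenase complex despite the name. Mrps18a and Mrps30 carry small-subunit names, but their products sit in the large subunit and were counted there.

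Levels spread from 1.37 to 163 FPKM (means over the 6 libraries), with a median of 12.9 FPKM against 9.84 FPKM over all tested genes. Means of 20 to 100 FPKM were found for 28 members, 10 to 20 FPKM for 20, 5 to 10 FPKM for 15 and 1 to 5 FPKM for 9. Mrpl33, a counterpart of bacterial L33, stood above all others at 162, 155 and 173 FPKM in NAC and 153, 161 and 175 FPKM in Control. It has the shortest row of the family (236 bases), so this level rests on 497 to 520 reads in NAC and 483 to 605 reads in Control, and the groups overlapped.

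Mrpl17, whose bacterial counterpart borders the tunnel through which the new peptide leaves, came next at 88.6, 86.2 and 88.6 FPKM in NAC and 89.1, 78.5 and 81.2 FPKM in Control. Mrpl52, a protein particular to mitochondria, had 47.8, 47.9 and 49.3 FPKM in NAC and 42.8, 48.6 and 42.2 FPKM in Control. Mrpl13 had 39.6, 48.5 and 44.0 FPKM in NAC and 41.6, 41.3 and 44.7 FPKM in Control. The groups overlapped for each of these genes. The ranges over the libraries of Mrpl52, Mrpl13 and the fifth in order, Mrpl43, overlapped in part.

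At the low end stood Mrpl1, a counterpart of the bacterial protein of the L1 stalk, which had 1.19, 1.66 and 1.14 FPKM in NAC and 1.44, 1.63 and 1.17 FPKM in Control. Across the 73 members mean level and row length had a Spearman coefficient of -0.53, against -0.0083 over all tested genes. This is a description across genes, which are not independent replicates and share the division by length.

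**Figure D1:**
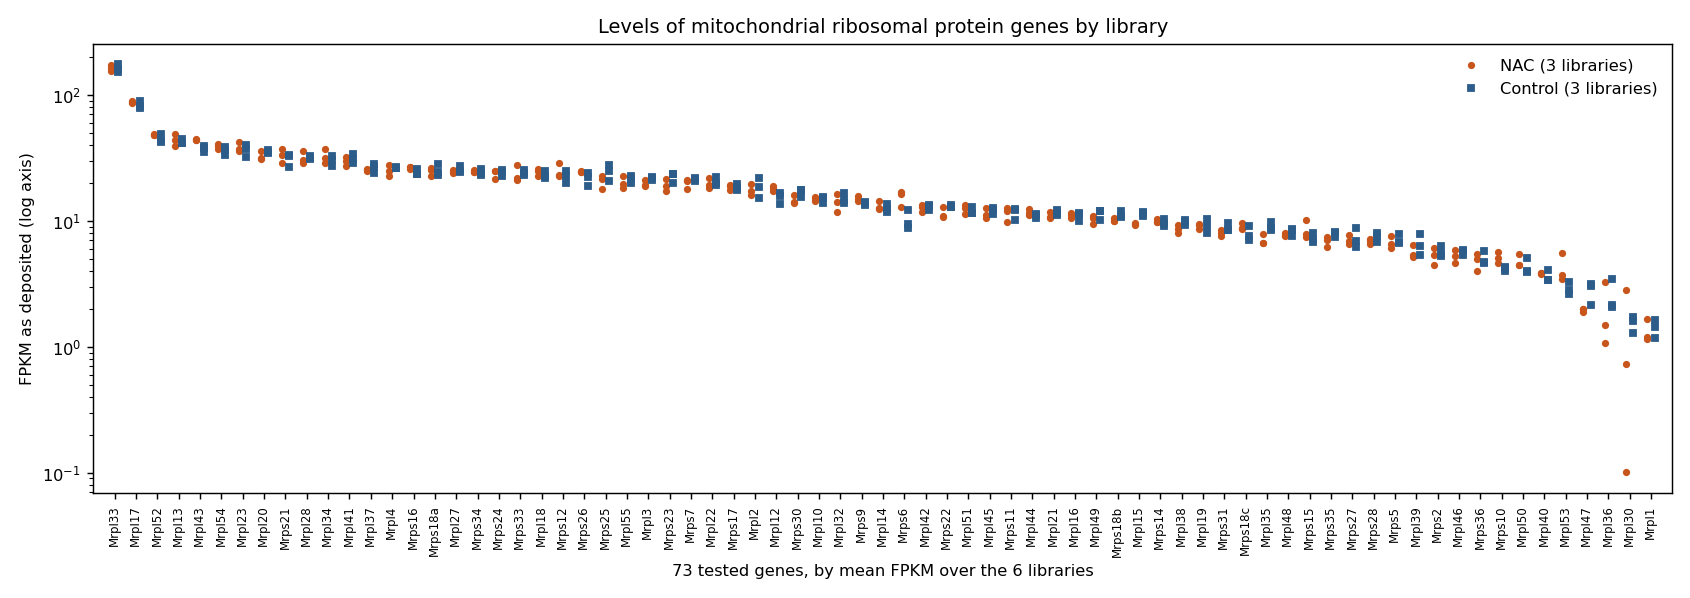
Deposited FPKM (log axis) of the 73 tested members in each NAC library (circles) and each Control library (squares), ordered by mean level. The groups lie on top of each other for most members, from Mrpl33 at 163 FPKM to Mrpl1 at 1.37 FPKM, and the NAC libraries of Mrpl30 lie far apart.

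Setting NAC against Control asks what the antioxidant did to gene expression. On the deposited scale 1 member was higher (Mrpl43) and 1 lower (Mrpl15) of 73 tested. Over the 12733 tested genes 6.08% were higher and 2.72% lower. The test was limma on log2(FPKM + 1), with p-values adjusted by Benjamini-Hochberg over these genes and a threshold of 0.05. The median log2 fold change of the members was -0.033, against -0.0063 over all tested genes, with 30 members above 0 and 43 below. On this fitted scale, where the added 1 understates changes of low genes, no member reached 1.5-fold. Mrps6 came closest, with means of 15.5 FPKM in NAC and 10.2 FPKM in Control. Of the members 67 of 73 (91.8%) lay within 0.25 of 0 on the log2 scale, against 80.4% of all tested genes. An unadjusted p under 0.05 was reached by 11 members (15.1%), against 26.3% of all tested genes.

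Mrpl43, a large-subunit protein particular to mitochondria, had 44.8, 43.8 and 43.5 FPKM in NAC and 35.4, 39.4 and 38.1 FPKM in Control. All NAC libraries lay above all Control libraries. The log2 fold change was 0.22 ± 0.048 (SE, limma adjusted p = 0.0391), and in the leave-one-out fits it was called without Control 2 alone (0.25, limma adjusted p = 0.0308). Scaled to library totals it was 0.051 ± 0.046 (limma adjusted p = 0.413) and the groups overlapped. Its row (chromosome 1, 264755538 to 264756546, minus strand, in the deposited coordinates) overlaps that of Peo1, the mitochondrial DNA helicase, by 48 bases.

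Mrpl15, a counterpart of bacterial L15 that binds the large ribosomal RNA, had 9.40, 9.69 and 9.24 FPKM in NAC and 11.5, 11.7 and 10.9 FPKM in Control. All NAC libraries lay below all Control libraries. The log2 fold change was -0.24 ± 0.052 (SE, limma adjusted p = 0.0365). It ranged from -0.27 to -0.22 when each library was left out, with limma adjusted p = 0.0711 to 0.114, so that the call was lost in all 6 of these fits. With library totals the difference was -0.40 ± 0.049 (SE, limma adjusted p = 0.00456), and it was called in all 6 leave-one-out fits. The row lies on chromosome 5, 14609674 to 14620965, plus strand, in the deposited coordinates.

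The NAC libraries lay above all Control libraries for 8 of 73 members (against 16.7% of all tested genes) and below all of them for 6 (against 15.9%). The 8 were Mrpl43, Mrps16, Mrps26, Mrpl12, Mrps9, Mrps6, Mrps10 and Mrpl53, and the 6 were Mrps22, Mrps18b, Mrpl15, Mrps31, Mrpl35 and Mrpl47. Some of these names were chosen after their values were seen, since they fall outside the rule for named genes.

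Mrps6, a small-subunit counterpart of bacterial S6, had the highest log2 fold change. It had 12.9, 17.1 and 16.4 FPKM in NAC and 8.83, 12.3 and 9.46 FPKM in Control, from 123 to 162 reads in NAC and 85 to 109 reads in Control. The groups did not overlap, with NAC 1 close to Control 2. The log2 fold change was 0.56 ± 0.14 (SE) and missed the threshold (limma adjusted p = 0.0568). Without Control 2 it was 0.69 and past the threshold (limma adjusted p = 0.0257), and with library totals it was 0.40 ± 0.14 (SE, limma adjusted p = 0.0628). On that scale Mrps6 was called in 2 of 6 leave-one-out fits.

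Mrpl12, whose bacterial counterpart forms the flexible stalk that recruits translation factors, had 18.1, 17.4 and 18.8 FPKM in NAC and 13.6, 16.5 and 15.7 FPKM in Control. The groups did not overlap, and Control 1 was the lowest library. The log2 fold change was 0.24 ± 0.076 (SE, limma adjusted p = 0.105) as deposited, and with library totals it was 0.072 ± 0.075 (SE, limma adjusted p = 0.482). Mrpl53 had 3.68, 3.48 and 5.51 FPKM in NAC and 2.62, 3.27 and 2.84 FPKM in Control, from 17 to 25 reads in NAC and 13 to 15 reads in Control. Its log2 fold change was 0.40 ± 0.16 (SE, limma adjusted p = 0.166). With library totals it was 0.26 (limma adjusted p = 0.231) and the groups overlapped.

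The lowest log2 fold changes belonged to members of low level. Mrpl30, a counterpart of bacterial L30, had 0.729, 0.101 and 2.82 FPKM in NAC and 1.61, 1.72 and 1.28 FPKM in Control, from 29, 4 and 104 reads in NAC against 55 to 65 reads in Control. The NAC libraries thus lay on both sides of the Control libraries. Its log2 fold change was -0.38 ± 0.42 (SE, limma adjusted p = 0.608), and it was 0.023 without NAC 2 and -0.87 without NAC 3. The row overlaps the opposite-strand row of Mitd1 over 76963 bases, and Mitd1 averaged 3.54 ± 0.243 FPKM in NAC and 4.17 ± 0.0443 FPKM in Control (SD, n = 3 each).

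Mrpl47, a counterpart of bacterial L29, had 1.98, 1.98 and 1.89 FPKM in NAC and 2.14, 3.17 and 3.03 FPKM in Control. All NAC libraries lay below the Control libraries, and the log2 fold change was -0.35 ± 0.13 (SE, limma adjusted p = 0.151). With library totals it was -0.46 (limma adjusted p = 0.0337) and was called in 1 of 6 leave-one-out fits. Mrpl36 rested on 13, 6 and 4 reads in NAC and 14, 8 and 9 reads in Control, and the groups overlapped (log2 fold change -0.32 ± 0.29, SE, limma adjusted p = 0.524).

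**Figure D2:**
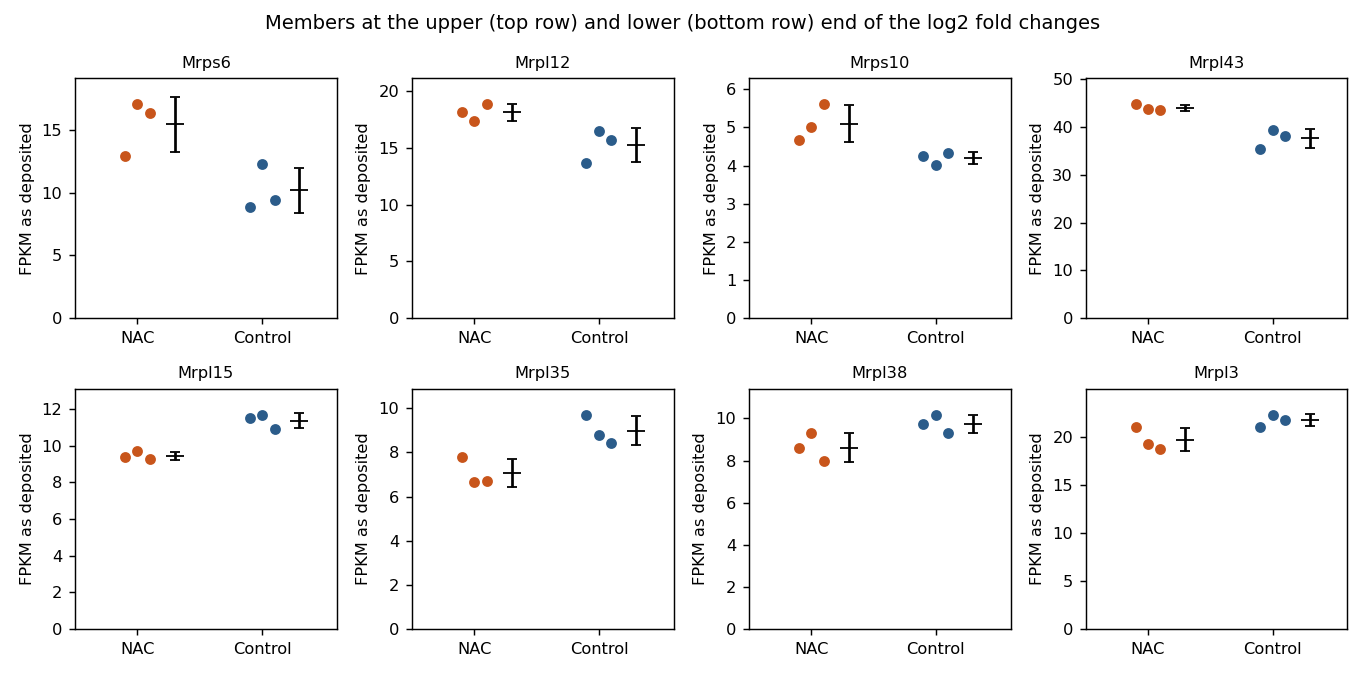
Deposited FPKM of 8 members in each NAC library (left, orange) and each Control library (right, blue), with the mean ± SD (n = 3) beside the points. The NAC libraries lie above the Control libraries for Mrps6, Mrpl12, Mrps10 and Mrpl43 and below them for Mrpl15 and Mrpl35, while the groups overlap for Mrpl38 and Mrpl3 on this scale.

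Scaled to library totals, no member was higher and 20 of 73 (27.4%) were lower by limma (adjusted p under 0.05), against 3.67% higher and 29.4% lower of 12681 tested genes. The share of members that fell is close to that background. The members' median log2 fold change was -0.19 against -0.16 over all tested genes, and 65 of 73 lay below 0. At an unadjusted p under 0.05, 1 member was higher and 31 lower, against 5.24% higher and 40.8% lower of all tested genes. The limma voom fit on the recovered reads called 0 members higher and 17 lower, against 4.19% higher and 33% lower of all tested genes. All NAC libraries lay below all Control libraries for 30 members (41.1%, against 44.8% of all tested genes), and none had all NAC libraries above (background 5.7%). The 20 were Mrpl3, Mrpl4, Mrpl15, Mrpl20, Mrpl21, Mrpl27, Mrpl35, Mrpl37, Mrpl38, Mrpl47, Mrpl48, Mrpl49 and Mrps30 of the large subunit, with Mrps7, Mrps18b, Mrps22, Mrps23, Mrps25, Mrps31 and Mrps35 of the small subunit.

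Mrpl15, Mrpl3, Mrpl35 and Mrpl38 were lower on this scale and in all 6 leave-one-out fits on it. Mrpl35, a counterpart of bacterial L35, had 7.13, 6.07 and 6.21 FPKM in NAC and 10.1, 8.99 and 8.80 FPKM in Control after rescaling. NAC lay below Control in every library, and the log2 fold change was -0.46 ± 0.081 (SE, limma adjusted p = 0.00962). As deposited it was -0.31 ± 0.081 (SE, limma adjusted p = 0.0646), and the groups did not overlap there either.

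Mrpl3, whose bacterial counterpart reaches towards the peptidyl transferase centre, had 19.3, 17.5 and 17.4 FPKM in NAC and 21.9, 22.8 and 22.7 FPKM in Control after rescaling. Its groups were apart on that scale (log2 fold change -0.30 ± 0.053, SE, limma adjusted p = 0.00984) and overlapped as deposited, where the change was -0.14. Mrpl38, a large-subunit protein particular to mitochondria, had 7.82, 8.46 and 7.37 FPKM in NAC and 10.1, 10.4 and 9.69 FPKM in Control after rescaling. It was lower by limma (log2 fold change -0.32 ± 0.065, SE, adjusted p = 0.0139), and as deposited the change was -0.16 and the groups overlapped.

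A further 4 members led the calls on this scale. Mrps18b, a small-subunit protein, stood at -0.28 on the log2 scale (limma adjusted p = 0.0164) and lost the call in 1 of 6 leave-one-out fits. Mrpl20, a counterpart of bacterial L20, stood at -0.28 (limma adjusted p = 0.0175) and Mrpl27, whose bacterial counterpart touches the peptidyl transferase centre, at -0.22 (limma adjusted p = 0.0180), each called in 4 of 6 such fits. Mrps30 stood at -0.34 (limma adjusted p = 0.0187) and was called in 3 of 6.

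**Figure D3:**
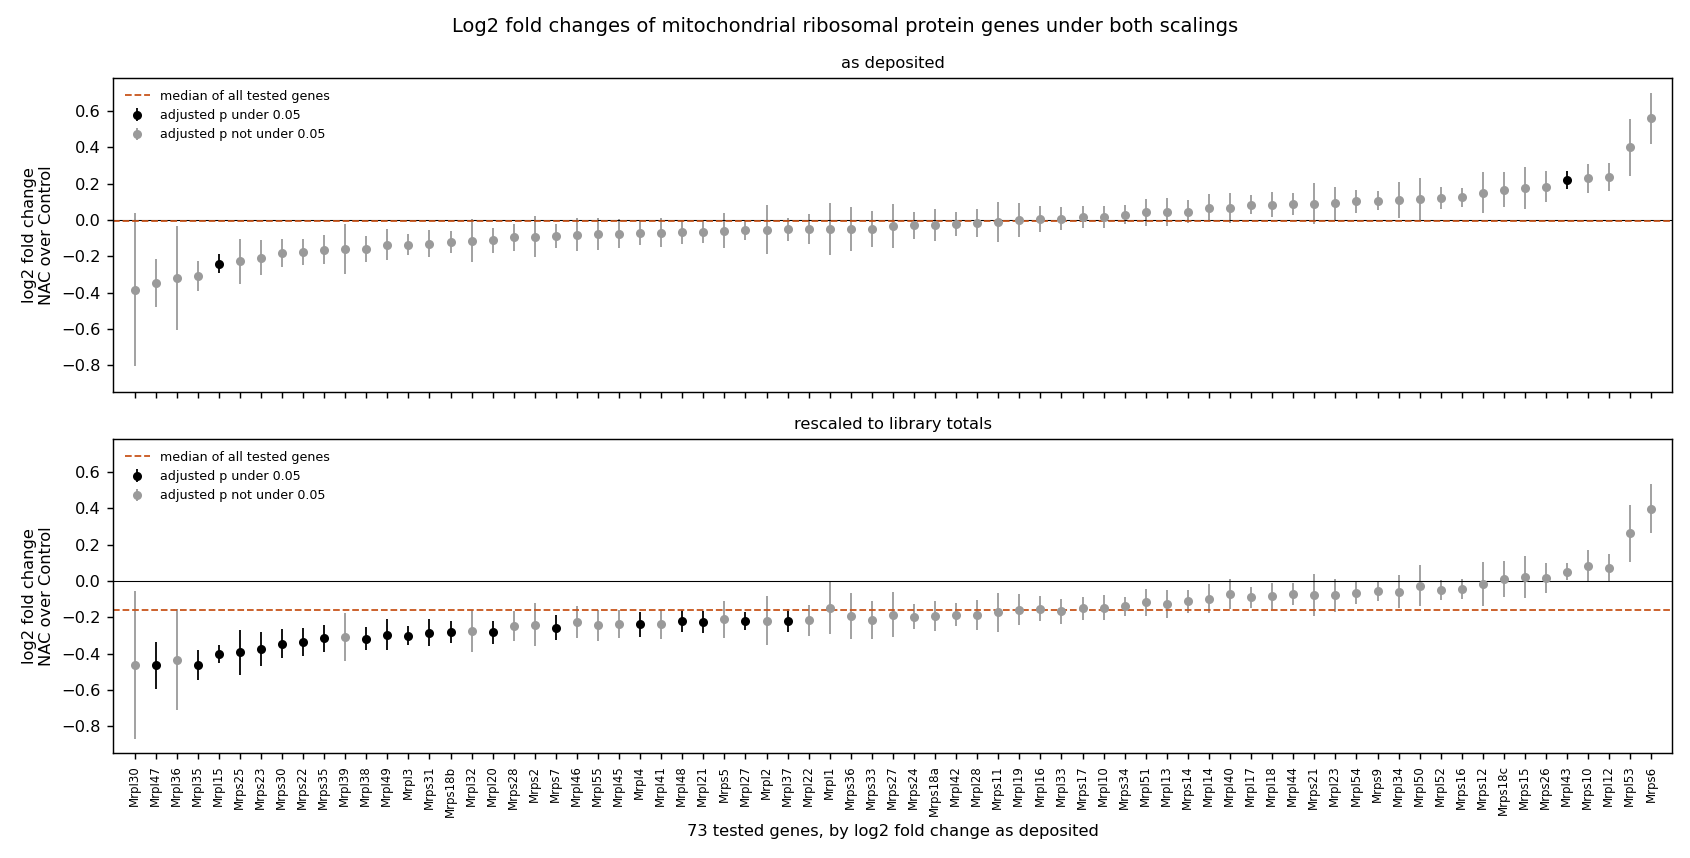
Log2 fold change of NAC over Control ± SE for the 73 tested members as deposited (above) and after rescaling to library totals (below), with members in 1 order. Black points have an adjusted p under 0.05 (2 members above, 20 below), and the dashed line is the median of all tested genes (-0.0063 above, -0.16 below).

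Among the subunits the differences between medians were small. The large subunit had a median log2 fold change of -0.051 (46 members) and the small subunit -0.021 (26 members) as deposited. With library totals 13 of 46 large-subunit members (median -0.21) and 7 of 26 small-subunit members (median -0.18) were lower, against 29.4% of all tested genes. Within the small subunit, the 16 proteins with a bacterial counterpart had a median of 0.068, with 10 above 0. The 10 particular to mitochondria had a median of -0.13, with 8 below 0. With library totals 1 of the 16 and 6 of the 10 were lower (Mrps18b, Mrps22, Mrps23, Mrps25, Mrps31 and Mrps35 among the 10), beside 29.4% of all tested genes. Mrps18b is placed here, as Mrps18a is in the large subunit, by the naming of ribosome structures, although both are paralogs of bacterial S18. Counted with the bacterial counterparts, an alternative added after the data were seen, it left 2 of 17 and 5 of 9 lower, with medians of 0.046 for the 17 and -0.13 for the 9 as deposited. The difference between these classes was not tested. In the large subunit the corresponding medians were closer, at -0.051 for 27 proteins with a bacterial counterpart and -0.026 for 19 without.

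The 3 paralogs of bacterial S18 differed in level. Mrps18a averaged 24.8 ± 1.90 FPKM in NAC and 25.3 ± 2.71 FPKM in Control, with a log2 fold change of -0.026. Mrps18b averaged 10.2 ± 0.278 FPKM in NAC and 11.2 ± 0.669 FPKM in Control, with -0.12. Mrps18c averaged 8.97 ± 0.568 FPKM in NAC and 7.91 ± 1.05 FPKM in Control, with 0.17 (SD, n = 3 each). None of the 3 passed the threshold as deposited (limma adjusted p = 0.883, 0.245 and 0.316 in that order).

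The members that follow come from a short list of members of known role, and none was called as deposited. Of all 73 tested members 1 was higher and 1 lower on that scale, against 6.08% higher and 2.72% lower of all tested genes. Mrpl3, Mrps18b and Mrps30 of the same list were lower with library totals, as given above. Mrps12, whose bacterial counterpart lines the decoding centre, stood at 0.15 ± 0.11 on the log2 scale (SE, limma adjusted p = 0.452), which was -0.016 with library totals. Mrpl44, in which variants cause infantile cardiomyopathy in humans, averaged 11.7 ± 0.682 FPKM in NAC and 10.9 ± 0.401 FPKM in Control, with 0.088 ± 0.060 (SE, limma adjusted p = 0.396) and -0.072 with library totals. Mrpl10, the base of the stalk, stood at 0.017 ± 0.060 (SE, limma adjusted p = 0.888) and -0.15 with library totals. Mrpl41, a protein particular to mitochondria, stood at -0.069 ± 0.082 (SE, limma adjusted p = 0.636) and -0.24 with library totals. Mrps36, which belongs to neither subunit, stood at -0.049 ± 0.12 (SE, limma adjusted p = 0.841).

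Summed over the members, the level per library was 1401, 1417 and 1451 FPKM in NAC and 1374, 1439 and 1422 FPKM in Control as deposited, and the groups overlapped. As a share of all recovered reads it was 0.125%, 0.125% and 0.130% in NAC and 0.142%, 0.144% and 0.145% in Control. NAC lay below Control in every library, at 0.882 of the Control share. On the log2 scale this ratio was -0.18, close to the median of -0.16 over all tested genes with library totals. With the 10 most abundant rows left out of the total, the members held 0.150 ± 0.00256% in NAC and 0.164 ± 0.00211% in Control (SD, n = 3 each), a ratio of 0.916. The members took 18672, 18671 and 17657 reads in NAC and 18813, 17957 and 20411 reads in Control, and these counts overlapped. The large subunit's summed FPKM was 2.58 ± 0.0693 times that of the small subunit in NAC and 2.60 ± 0.0736 times in Control.

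The mRNAs that these ribosomes translate stood apart from their ribosomal proteins. The 13 protein-coding genes of the mitochondrial genome had a median log2 fold change of 0.49 as deposited, with 10 higher and none lower by limma (against 6.08% higher and 2.72% lower of all tested genes). With library totals the median was 0.31, with 9 higher and none lower (against 3.67% higher and 29.4% lower). At an unadjusted p under 0.05 none was lower on either scale. Mt-co2, a subunit of cytochrome c oxidase, had 2592, 2563 and 2502 FPKM in NAC and 1603, 1545 and 1607 FPKM in Control (log2 fold change 0.69, limma adjusted p = 4.06e-04, and 0.51 with library totals). Mt-atp6, a subunit of ATP synthase, averaged 2634 FPKM in NAC and 1749 FPKM in Control, with a log2 fold change of 0.42 with library totals. The log2 fold changes of the 13 ran from 0.099 to 0.69 as deposited. Per member read there were 18.1, 17.5 and 17.0 reads of these mRNAs in NAC and 15.0, 14.0 and 14.1 in Control. The groups did not overlap. As shares of library reads, these mRNAs stood at 1.08 times Control and the members at 0.882 times Control. The share weights each mRNA by its reads, so its ratio is smaller here than the median log2 fold change of 0.31 describes. The counts of mitochondria per cell were not measured.

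**Figure D4:**
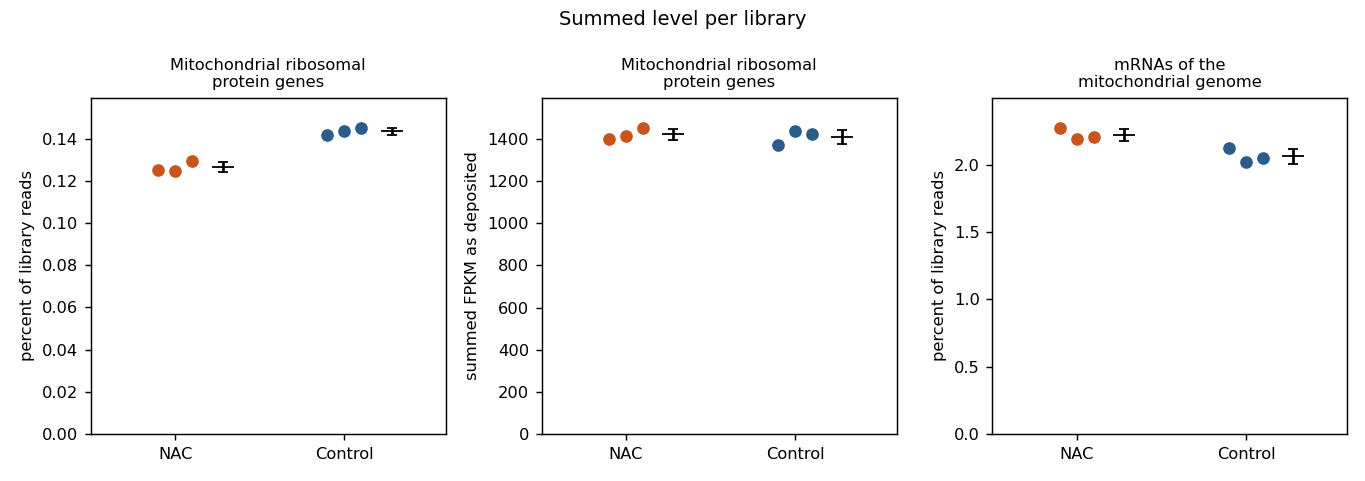
Summed level per library of the mitochondrial ribosomal protein genes as a percent of library reads (left) and as deposited FPKM (middle), and of the mRNAs of the mitochondrial genome as a percent of library reads (right), with NAC left of Control and the mean ± SD (n = 3) beside the points. The members' share was 0.127% in NAC and 0.144% in Control, their summed FPKM overlapped, and the mitochondrial mRNAs took 2.22% in NAC and 2.06% in Control.

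Further subunits of the same ribosome that the name rule does not catch gave a like picture. Of 9 tested, 4 were lower with library totals, where 29.4% of all tested genes were. As deposited none was higher and 1 lower, against 6.08% higher and 2.72% lower of all tested genes. The lower one, mrpl24, a large-subunit counterpart of bacterial L24 listed in lower case, had 12.01, 10.7 and 11.1 FPKM in NAC and 14.3, 14.0 and 14.4 FPKM in Control. All NAC libraries lay below Control, and the log2 fold change was -0.32 ± 0.056 (SE, limma adjusted p = 0.0200), called in 2 of 6 leave-one-out fits. With library totals it was -0.48 ± 0.058 (SE, limma adjusted p = 0.00426), called in 6 of 6. Ict1, the ribosome-bound peptidyl-tRNA hydrolase also named Mrpl58, had 17.3, 19.997 and 17.8 FPKM in NAC and 15.8, 15.0 and 15.7 FPKM in Control (log2 fold change 0.23 ± 0.063, SE, limma adjusted p = 0.0718), and with library totals the change was 0.066 ± 0.064 (SE, limma adjusted p = 0.449). For mrpl11, a counterpart of a bacterial protein of the stalk base, the change was 0.0028 ± 0.065 (SE, limma adjusted p = 0.984), and -0.16 with library totals.

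The factors that build and serve the ribosome were mostly short of the threshold as deposited. Of 21 tested assembly factors 1 was lower, against 2.72% of all tested genes. This was Dhx30, an RNA helicase needed for the mitochondrial large subunit. It had 17.2, 16.6 and 17.3 FPKM in NAC and 20.1, 19.9 and 19.8 FPKM in Control (log2 fold change -0.22 ± 0.042, SE, limma adjusted p = 0.0276), and was called in 1 of 6 leave-one-out fits. With library totals the change was -0.38 ± 0.045 (SE, limma adjusted p = 0.00400), called in 6 of 6. None of 15 tested translation factors was called by limma, with 0 higher and 4 lower at an unadjusted p under 0.05. Over all tested genes 26.3% reached that p in either direction. Tufm, the elongation factor that brings tRNAs to the ribosome, averaged 30.4 FPKM in NAC and 29.8 FPKM in Control, and Oxa1l, which inserts new proteins into the inner membrane, 29.7 FPKM in NAC and 27.9 FPKM in Control. With library totals 5 of 21 assembly factors and 7 of 15 translation factors were lower and none higher, against 29.4% lower of all tested genes. Tufm was among the lower ones (-0.14, limma adjusted p = 0.0466), and Oxa1l was not called (-0.083, limma adjusted p = 0.354).

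Of 26 tested genes of mitochondrial transcription and RNA maturation 1 was higher as deposited, against 6.08% of all tested genes. This was Fastk, an RNA-binding protein of mitochondria. It had 63.2, 62.3 and 59.8 FPKM in NAC and 55.1, 55.3 and 55.2 FPKM in Control (log2 fold change 0.16 ± 0.036, SE, limma adjusted p = 0.0434). The call was lost in all 6 leave-one-out fits, and with library totals the change was -0.012. On that scale 13 of the 26 were lower, against 29.4% of all tested genes. None of 7 tested regulators of mitochondrial biogenesis was called by limma as deposited. At an unadjusted p under 0.05, 1 was higher and 1 lower, where 26.3% of all tested genes reached that p. With library totals 2 of the 7 were lower, against 29.4% of all tested genes. Yy1 averaged 31.8 FPKM in NAC and 33.4 FPKM in Control, and Esrra, an orphan nuclear receptor, 44.9 FPKM in NAC and 47.8 FPKM in Control. With library totals Yy1 was lower (-0.24, limma adjusted p = 0.0404) and Esrra was not called (-0.25, limma adjusted p = 0.101). The median log2 fold changes of these lists ran from -0.11 (translation factors) to -0.032 (subunits outside the name rule), beside -0.033 for the members.

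**Figure D5:**
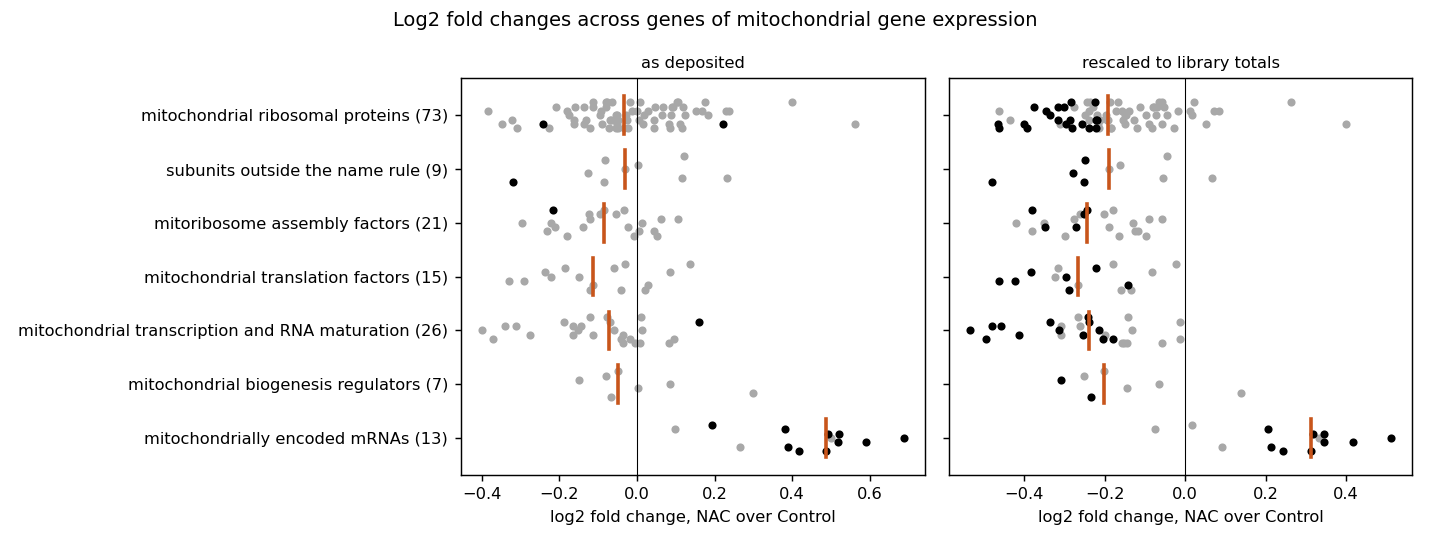
Log2 fold change of NAC over Control for each tested gene of the mitochondrial ribosome and of 6 related lists, as deposited (left) and after rescaling to library totals (right). Black points have an adjusted p under 0.05 and orange bars are medians, which lie at or below 0 as deposited for all lists but the mRNAs of the mitochondrial genome (0.49).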

How the data were processed

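The sources used here do not give the aligner, counting method, strand setting or tests. The authors deposited 1 table of FPKM values for 33300 rows with rat Ensembl identifiers or unannotated loci. Per the submitters' processing notes the builds are GRCm38 and mm10, both of mouse, so the build of the rat coordinates is uncertain. Per the labels' protocols, a Qiagen kit gave the RNA and a SMARTer kit the libraries. Columns headed N were taken as Control by elimination. FPKM times length gave whole multiples of 1 step per library (tolerance 0.01) for 100% of values, from which reads were recovered and library totals formed.

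NAC was compared with Control over 3 libraries each by limma 3.58.1 in R 4.3.3 (trend, two-sided, group only) on log2(FPKM + 1) for rows with a mean FPKM of at least 1, adjusted by Benjamini-Hochberg over all tested rows. Fold changes on this scale understate those of low genes. The whole-read fit (limma voom on the recovered reads, scaled to their totals over the tested rows) was one alternative. Python 3.11.15 with pandas 2.3.3, numpy 2.4.6 and matplotlib 3.10.9 made tables and figures.

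Members, gene lists and tests were chosen with earlier results of these data known. The rule for named genes took called members (up to 8 in each direction and scaling), the 3 highest and 3 lowest log2 fold changes, the 5 most abundant members, the rows at 0, a short list of members of known role, and up to 4 called genes (or the 2 most abundant) of each related list. Of 103 list entries 99 rows were found, 12 by an older name. No replicate pair was within sampling noise (chi-square over its degrees of freedom 3.46 to 8.71), so each library counted as 1. Control 2 stood furthest from its group, at 8.71 against Control 1 and 8.54 against Control 3. Control 1 against Control 3 gave 3.49, and the NAC pairs gave 3.46 to 5.04. Counting error alone is covered by read numbers. With 3 libraries a group an exact permutation test cannot go below p = 0.10, and no p is given for sums over the members. Alternatives were another scaling, pseudocount, filter, variance model, row set, the replicate number as a block and leaving out each library.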

Additional observations from a re-analysis of the deposited data

How the results depend on the processing

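On the authors' scaling the count of members called was 0 to 2 higher and 0 to 1 lower under the other pseudocounts, filters, variance models and row sets. Higher members numbered 0 with quantile normalization, without a filter and without trend, and 2 with a mean FPKM of at least 5 and with protein-coding rows only. Lower members numbered 0 without a filter. The limma voom fit on the recovered reads was scaled to their totals and not by the authors' scaling. It called 0 members higher and 17 lower, and its median was -0.22. With library totals 0 members were higher and 20 lower, and the median was -0.19. Over all tested genes 465 were higher and 3725 lower with library totals, 4197 lower with voom on the recovered reads, 207 lower without a filter and 206 lower without trend, against 774 and 346. With the total taken without the 10 most abundant rows the members' share ratio was 0.916. The cause of these differences was not tested.

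In the 6 fits that leave out 1 library as deposited, 0 to 3 members were higher and 0 lower, with a member median of -0.042 to 0.0029. Over all genes 264 to 859 were higher and 51 to 347 lower. The upper ends of 3, 859 and 347 came from the fit without Control 2. In the 6 such fits with library totals, 0 to 1 members were higher and 7 to 15 lower, with a member median of -0.20 to -0.16. Over all genes 277 to 517 were higher and 1996 to 3586 lower. Each group then kept at least 2 libraries. Replicate numbers showed no clear pairing: deviations of same-numbered libraries had correlations of 0.063, 0.059 and -0.050. Differently numbered libraries had -0.11 to 0.065. Whether the samples were paired is not in the labels. With the replicate number as a block 466 genes were higher and 110 lower, and 0 members lower, with Mrps6 called higher in place of Mrpl43. With library totals and the replicate block, an alternative added after the data were seen, 412 genes were higher and 2933 lower. Of the members 1 was higher in that fit (Mrps6) and 13 lower, and the member median was -0.19.

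Signs turned for the named genes that follow. With library totals, with and without the replicate block, the log2 fold change was -0.17 for Mrpl33, -0.090 for Mrpl17, -0.012 for Fastk, -0.052 for Mrpl52, -0.13 for Mrpl13, -0.14 for Tufm, -0.083 for Oxa1l, -0.016 for Mrps12, -0.16 for mrpl11, -0.15 for Mrpl10 and -0.072 for Mrpl44. With voom on the recovered reads it was -0.17 for Mrpl33, -0.092 for Mrpl17, -0.012 for Fastk, -0.052 for Mrpl52, -0.13 for Mrpl13, -0.15 for Tufm, -0.085 for Oxa1l, -0.028 for Mrps12, -0.18 for mrpl11, -0.16 for Mrpl10 and -0.079 for Mrpl44, and with quantile normalization -0.10 for Mrpl33 and -0.0056 for mrpl11. Over the 12 fits without 1 library the range was -0.35 to 0.028 for Esrra, -0.026 to 0.18 for Fastk, -0.24 to 0.014 for Mrpl1, -0.20 to 0.050 for Mrpl10, -0.21 to 0.049 for mrpl11, -0.00028 to 0.29 for Mrpl12, -0.19 to 0.12 for Mrpl13, -0.14 to 0.14 for Mrpl17, -0.94 to 0.023 for Mrpl30, -0.22 to 0.059 for Mrpl33, -0.11 to 0.12 for Mrpl44, -0.082 to 0.18 for Mrpl52, -0.13 to 0.23 for Mrps12, -0.25 to 0.056 for Mrps18a, -0.064 to 0.26 for Mrps18c, -0.28 to 0.058 for Mrps36, -0.12 to 0.14 for Oxa1l and -0.17 to 0.051 for Tufm. The 12 fits pool both scalings. For Mrpl17, Mrpl44, Oxa1l and Tufm the sign turned with the scaling, and no left-out library turned it within a scaling. As deposited their ranges were 0.045 to 0.14, 0.047 to 0.12, 0.038 to 0.14 and 0.012 to 0.051 in that order. With library totals they were -0.14 to -0.034, -0.11 to -0.045, -0.12 to -0.035 and -0.17 to -0.11. For the other genes of these ranges the sign differed between fits of the same scaling. Precision is limited for Mrpl30, Mrpl36, Mrpl53 and Mrpl1 by their few reads.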
